A study of Mus musculus with 52 samples.

Results

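The proteasome genes are described here by the amount of RNA polymerase II (Pol II) bound at their transcription start sites in mouse neurons. Members were the gene symbols of the deposited Pol II table that begin with Psma, Psmb, Psmc, Psmd, Psme, Psmf or Psmg followed by a digit. This gave 52 start-site windows of 600 bp for 50 symbols, out of 27815 windows for 24194 symbols. Where a symbol had more than 1 window, that of highest mean density was kept, and 44 of the 50 members lay above the density filter that decided which genes were tested. Of the 50 symbols, 48 have a listed role in the proteasome. The other 2, Psmc3ip, a factor of meiotic recombination, and Psme2b, matched the rule but were in none of the role lists. Psmc3ip is among the 44 tested members, and Psme2b is not.

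Chromatin immunoprecipitation with sequencing was carried out on primary neurons of CD1 mice, with and without neuronal activity, in U0126 or in vehicle (DMSO). U0126 inhibits the kinases MEK1 and MEK2, which activate ERK. The 31 Pol II libraries fell into 16 groups. In each drug arm, activity lasted 1, 10, 30, 60, 180 or 360 min, and 2 unstimulated groups were labelled 1 h and 6 h. Each group had 2 libraries except U0126 at 180 min, which had 1. The labels name no stimulus and do not say whether the libraries of a group came from separate cultures, so p-values measure the spread between these samples only, which may be technical. All neurons were of 1 strain, with no genetic change named, and the age of the animals was not given in the sources used here. The 16 H3K27ac libraries were summarised by their authors over 940 regions, and 0 of these regions had a proteasome gene as its nearest gene.

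The proteasome is the protease that degrades proteins tagged with ubiquitin. Its barrel-shaped core has outer alpha rings and inner beta rings that carry the active sites, and a 19S cap made of a base and a lid recognises, unfolds and feeds in the substrates. Because the complex is needed in every cell its genes are usually described as housekeeping genes, while neurons also use it at synapses to change protein content with activity. Interferon-induced beta subunits can replace the standard active sites to form the immunoproteasome.

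The 150 bases before the start site are shown for a few members whose Pol II levels are set side by side in the results. They come from RefSeq, build GRCm38.p6, and run 5′ to 3′ on the strand of the gene. Psmb5 and Psmb6 encode standard active subunits, and Psmb8 and Psmb9 their interferon-induced replacements. Psmc1 was the base ATPase whose window had the lowest density, Psmd2 the base subunit with the most, and Psme2 the member with the largest vehicle difference. Capitals mark a TGACNNNGC match (Psmb5, Psmb6), a CCGGAAG match read on the other strand (Psmc1, Psmd2) and a CCAAT match read on the other strand (Psmb9).
Psmb5: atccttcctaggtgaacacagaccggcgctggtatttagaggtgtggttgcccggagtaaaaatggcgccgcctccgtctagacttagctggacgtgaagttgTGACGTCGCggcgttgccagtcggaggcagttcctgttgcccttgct
Psmb8: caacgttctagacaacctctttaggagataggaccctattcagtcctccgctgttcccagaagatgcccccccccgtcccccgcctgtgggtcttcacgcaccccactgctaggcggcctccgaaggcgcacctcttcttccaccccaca
Psmb6: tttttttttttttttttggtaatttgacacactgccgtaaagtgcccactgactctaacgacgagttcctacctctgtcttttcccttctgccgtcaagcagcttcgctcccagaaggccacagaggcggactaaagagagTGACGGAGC
Psmb9: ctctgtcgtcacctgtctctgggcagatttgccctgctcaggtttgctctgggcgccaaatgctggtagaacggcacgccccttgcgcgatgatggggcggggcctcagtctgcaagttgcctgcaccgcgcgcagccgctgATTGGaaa
Psmc1: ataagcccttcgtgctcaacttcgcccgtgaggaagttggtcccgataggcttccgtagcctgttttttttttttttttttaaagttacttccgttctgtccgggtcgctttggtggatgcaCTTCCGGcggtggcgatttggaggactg
Psmd2: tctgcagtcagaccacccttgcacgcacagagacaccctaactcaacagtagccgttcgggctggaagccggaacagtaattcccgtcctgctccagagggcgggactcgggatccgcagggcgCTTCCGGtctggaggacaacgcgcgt
Psme2: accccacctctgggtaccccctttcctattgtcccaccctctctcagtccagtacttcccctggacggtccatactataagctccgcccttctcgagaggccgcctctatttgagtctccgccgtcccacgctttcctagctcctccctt

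RefSeq promoters of 300 bases, from 250 before the start to 50 after it, were matched for 42 of the 50 members. Those without one were Psma8, Psmb1, Psmb2, Psmb7, Psmc3, Psmd3, Psmd7 and Psmg2. The motifs were chosen with the data in view, searched on both strands and counted separately, so that a promoter could hold several. CCGGAAG, the core bound by ETS factors, was found in 15 of 42 member promoters (35.7%), against 9.93% of all 27025 promoters. TGACNNNGC, the core of the antioxidant response element through which Nfe2l1 and Nfe2l2 act on proteasome genes, was found in 6 members (14.3%), against 14.0% of all promoters. TGACGTCA, the cAMP response element read by CREB, was found in 0 members, against 2.03% of all promoters. The core of the interferon-stimulated response element, searched as 2 copies of GAAA with NN between them, was found in 5 members (11.9%), against 3.99% of all promoters. These were Psmb3, Psmd4, Psmg4, Psme1 and Psmd9, while Psmb8, Psmb9, Psmb10 and Psme2 had no match. CCAAT was found in 15 members (35.7%), against 41.1%. The member promoters were rich in CpG, with a median of 19 CpG dinucleotides, against 7 over all promoters. The 5 matched members below the density filter had a median of 4. Motif shares were not counted for promoters of like density or like CpG content, and CCGGAAG itself holds a CpG. Whether its share is particular to the members was therefore not tested. A match is a description of the letters and does not show that a factor binds there.

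The Pol II value is a normalized density per window, and all windows have the same length, so levels can be set side by side between genes. The tested members had mean densities of 0.434 to 3.27 over the 31 libraries, with a median of 1.36. Their coefficient of variation over libraries ran from 13.2% to 38.2%, with a median of 20.8%. The 6 members below the filter of 0.301 had mean densities of 0.148 to 0.228.

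The 7 genes of the outer alpha rings, which gate entry to the core, had mean densities of 0.877 to 2.10. Psma6 was the highest of them and Psma5 the lowest. The 7 standard beta-ring genes lay between 0.817 and 1.79. Among these, the 3 active-site subunits differed, with mean densities of 1.45 at Psmb6, 1.11 at Psmb5 and 0.817 at Psmb7. The immunoproteasome and tissue-specific subunits were the low group. Psmb9, which takes the place of Psmb6, had a mean density of 0.434, and was the only one of these 5 genes to pass the filter. Psmb10, which replaces Psmb7, had a mean density of 0.228, and Psmb8, which replaces Psmb5, had 0.209. Psmb11, of the thymus, had 0.184 and Psma8, of the testis, had 0.148. The Psmb9 window shared 375 bp with that of its divergent neighbour Tap1, a peptide transporter of antigen presentation, whose mean density was 0.457.

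The low values of the interferon-induced subunits stood beside low values at microglial genes. All 8 microglial markers lay below the filter, with a median density of 0.143. Of the neuronal markers, 8 of 10 passed the filter, with a median of 0.886 and Tubb3, a neuronal tubulin, at 5.15. Slc17a7 (0.203) and Slc17a6 (0.248) did not pass, and the passing neuronal markers other than Tubb3 lay between 0.419 at Rbfox3 and 1.15 at Stmn2. Most markers of the labelled cell type thus passed. However, 4 of 6 markers of the oligodendrocyte lineage also passed, among them Olig2 at 1.15 and Olig1 at 0.942. The part of these cells in the proteasome densities was not tested. Of the other lists, 2 of 6 astrocyte markers and 1 of 8 endothelial and fibroblast markers passed.

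In the 19S base, 5 of the 6 ATPase genes, whose products unfold substrates, had mean densities of 0.704 to 1.37. Psmc1 stood apart from them at 0.194, with no library above 0.363 and 1 library at 0. Its window lies at chr12:101350240-101350840 in mm9, and no other window of the table starts within 5000 bp of it. Whether this window holds the start site used in these neurons was not tested, so the value is that of the window. The base scaffold gene Psmd2 reached 2.26, above 97.0% of all genes. Its partner scaffold Psmd1 had 0.995, and the ubiquitin receptor Psmd4 had 1.30. The 8 lid genes were close together, between 0.966 at Psmd13 and 1.68 at Psmd8. The assembly chaperones spread most widely. Psmd5, a chaperone of the base, had the highest Pol II density of all members at 3.27, above 99.1% of all genes, while Psmd10 (gankyrin), which also helps to assemble the base, had 0.490. Of the activators, Psme4 (PA200) had 1.97 and Psme3 (PA28 gamma) 1.75, while Psme2 and Psme1, the subunits of the interferon-induced PA28 ring, had 1.09 and 0.804. In the order of mean density over all 50 members, the ranges over libraries overlapped in all 49 neighbouring pairs.

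**Figure D1:**
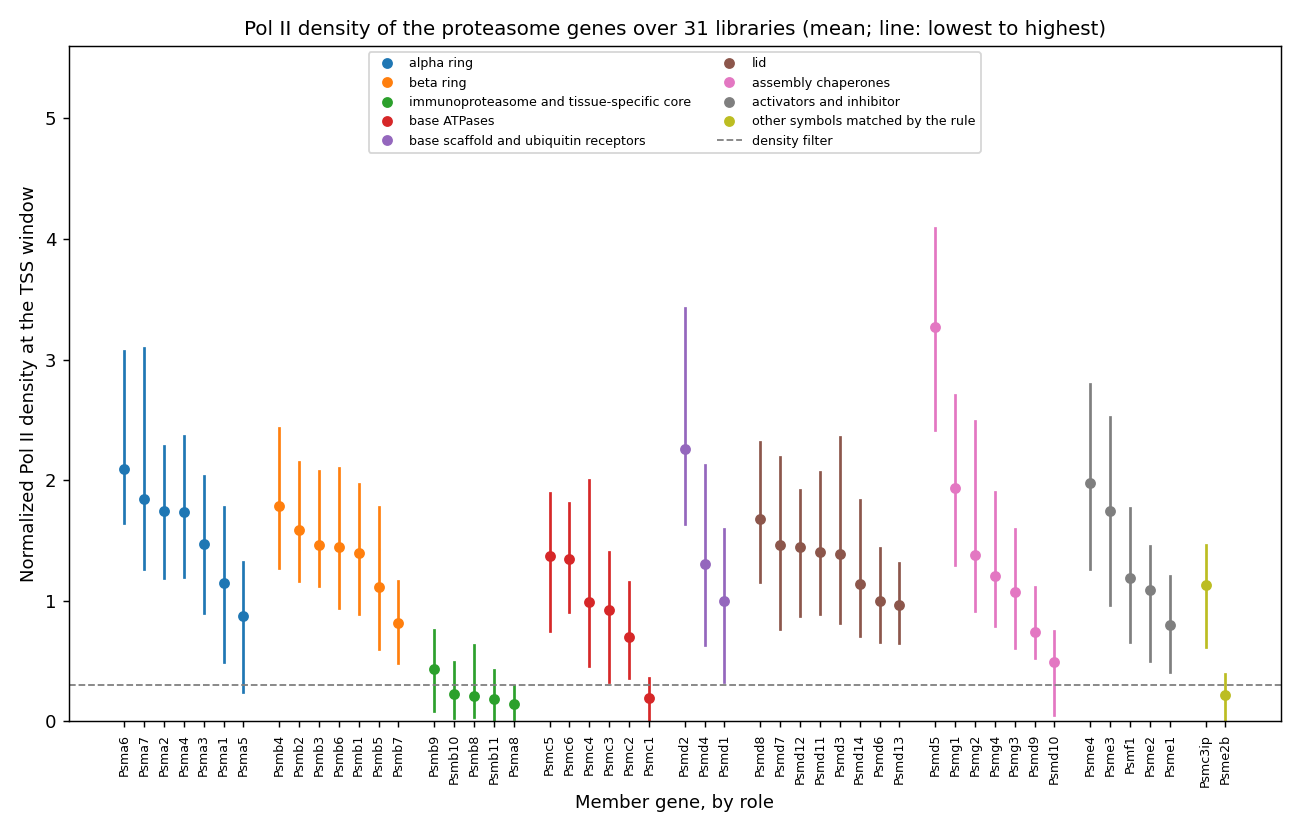
Normalized Pol II density at the start-site window (y axis) of each of the 50 members (x axis, by role), as the mean of 31 libraries (point) with the lowest and highest library (line). The alpha-ring, beta-ring and lid genes lie above the dashed density filter of 0.301, the immunoproteasome and tissue-specific genes lie near or under it, and Psmd5 is highest at 3.27.

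Immunoprecipitated DNA has no strand, so density cannot be assigned between genes that start close together. Windows of 9 members overlapped that of another gene, among them Psma7 with Ss18l1, which shared 582 bp, and Psma2 with Mrpl32, which shared 396 bp. Psmd13 shared up to 516 bp with Sirt3, Psmg2 338 bp with Cep76 and Psmc5 218 bp with Ftsj3. How reads with several matching places were treated is not given in the sources used here. This bears on Psme2 and on Psme2b. Psme2 also has a second window, which starts 80 bp away, overlaps the first and has a mean density of 1.01.

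Activity was examined first in vehicle. Against the unstimulated 1 h libraries, the 44 tested members had median log2 differences of 0.10, 0.22, 0.21 and 0.18 after 1, 10, 30 and 60 min. Genes of like density, the 3602 other genes with a mean density between the lower and upper quartile of the tested members (1.00 to 1.61), had medians of 0.02, 0.05, 0.08 and 0.08 at the same times. Against the unstimulated 6 h libraries, the members' median was 0.07 at 180 min and 0.08 at 360 min, beside 0.04 and 0.03 in genes of like density. The log2 differences are on the scale of log2(density + 0.148), which understates the change of low genes. The comparisons from 1 to 60 min share the same 2 unstimulated libraries, and those at 180 and 360 min share 2 others, so the times are not independent.

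No single member passed the test in vehicle. limma, with Benjamini-Hochberg adjustment over the 12097 genes tested, called 0 of the 44 members at each of the 6 times at an adjusted p under 0.05, where it called 0%, 0.19%, 1.42%, 0.157%, 0% and 0% of all genes from 1 to 360 min. At an unadjusted p under 0.05 there were 1, 3, 3, 1, 2 and 1 members at those 6 times, against 3.43%, 9.6%, 14.7%, 10.7%, 4.89% and 3.1% of all genes. The 3 members at 10 min, and likewise those at 30 min, are 6.82% of the 44, below the background. Named after their values were seen, they were Psme2 at 1, 10, 30 and 60 min, Psma7 and Psmb6 at 10 min, Psmb1 and Psmg1 at 30 min, Psma1 and Psmc6 at 180 min, and Psmd14 at 360 min. Most members had a difference above 0: 33 of 44 members at 10 min, 36 at 30 min and 33 at 60 min, beside 53.9%, 52.3% and 52.7% of all genes and 56.5%, 59.3% and 60.6% of genes of like density. These shares are a description of the list and were given no test.

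The medians of the single libraries hold the same values and are not a separate test. The median density of the tested members was 1.37 to 1.53 in the 6 vehicle libraries of 10, 30 and 60 min, against 1.14 and 1.22 in the 2 unstimulated 1 h libraries, with no overlap. For genes of like density it was 1.26 to 1.33 in the active libraries, against 1.19 and 1.20, also with no overlap. At 180 and 360 min the members' median was 1.20 to 1.33 in 4 active libraries, against 0.971 and 1.32 in the unstimulated 6 h libraries, which overlapped. Without the unstimulated library at 0.971, replicate 1, the members had a median log2 difference of -0.013 at 180 min and -0.068 at 360 min.

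**Figure D2:**
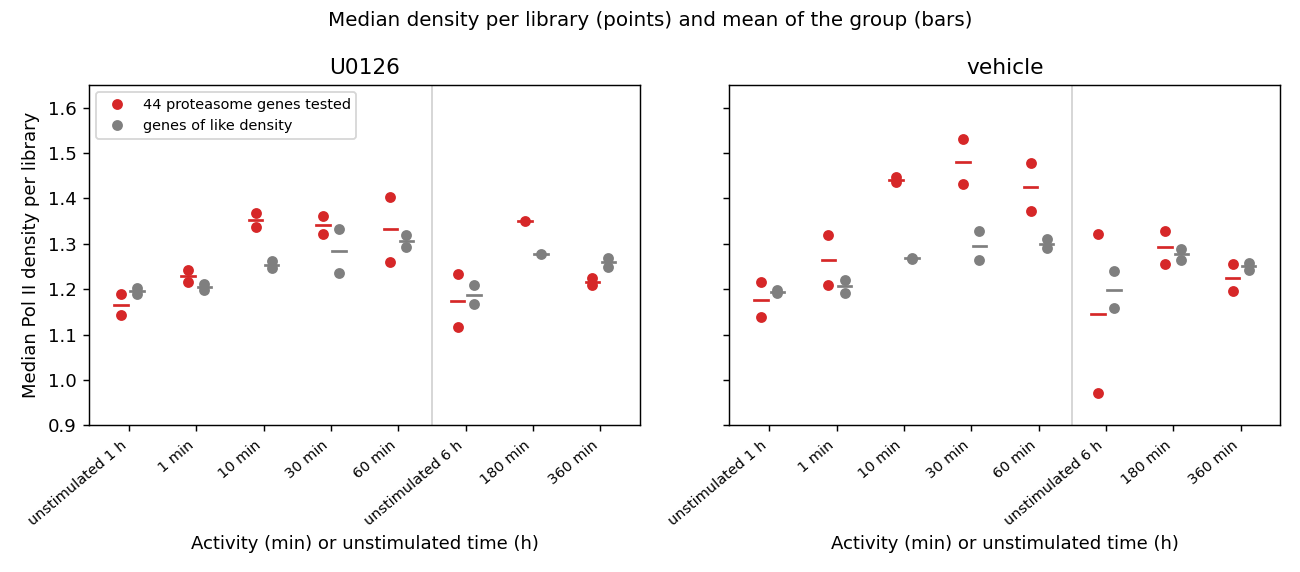
Median Pol II density per library (y axis, each point 1 library, bar the mean of the group) of the 44 tested proteasome genes and of genes of like density, by time (x axis), in U0126 and in vehicle. In vehicle the proteasome genes lie at 1.37 to 1.53 from 10 to 60 min, against 1.14 and 1.22 unstimulated at 1 h.

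Depth is unknown, since the table holds no read counts, and the share of windows at 0 is the one sign of it. That share was 0.723% to 11.5% over the libraries and was highest in vehicle at 30 min, replicate 1, which also had the highest member median, 1.53. Without that library the members' median log2 difference at 30 min was 0.14. Quantile normalization gave medians of 0.092 and 0.067 at 30 and 60 min, beside 0.0044 and 0.013 in genes of like density. Centring on all genes without the density filter gave 0.49 and 0.41 over all 50 members. In that setting the tested genes as a whole had medians of 0.35 and 0.31, against 0.02 and 0.03 in the reported fit.

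By role, the standard core genes and the tested ATPases were all positive at 30 min in vehicle, but not at 10 or 60 min. All 7 alpha-ring genes had positive log2 differences of 0.10 to 0.44, and all 7 beta-ring genes had 0.04 to 0.59. The 5 tested base ATPases had 0.21 to 0.50 at that time. The lid and the assembly chaperones were mixed, with 6 of 8 and 5 of 7 positive. At 10 min the positive genes were 4 of 7 in the alpha ring, 5 of 7 in the beta ring, 4 of 5 ATPases, 7 of 8 in the lid and 3 of 7 chaperones. At 60 min they were 5 of 7 in the alpha ring, 6 of 7 in the beta ring, 4 of 5 ATPases, 6 of 8 in the lid and 4 of 7 chaperones. None of these members was called.

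Psmb6, the caspase-like active site, was among the 4 members of lowest p over the 10 to 60 min mean. Its Pol II density in vehicle was 1.57 and 2.10 at 10 min, 1.77 and 1.62 at 30 min, and 1.54 and 1.85 at 60 min, against 1.11 and 1.34 in unstimulated 1 h libraries. Each active library was above both unstimulated ones. The log2 difference of the mean over 10 to 60 min was 0.43 ± 0.20 (SE), with a limma adjusted p of 0.304.

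Psme2, a subunit of the PA28 activator, had the largest difference. Its density in vehicle was 1.02 and 1.25 at 10 min, 0.873 and 1.27 at 30 min, and 1.00 and 1.42 at 60 min, against 0.498 and 0.781 unstimulated at 1 h. The groups did not overlap, and the difference of 0.69 ± 0.23 (SE, log2) had a limma adjusted p of 0.142. Without the first unstimulated library, at 0.498, it was 0.43. In U0126 the unstimulated 1 h libraries had 0.968 and 1.17. In vehicle the unstimulated 6 h libraries had 0.828 and 1.08, and those of 1 min had 1.17 and 1.16. The vehicle unstimulated 1 h libraries thus lay below each of these. The active U0126 libraries of 10 to 60 min had 0.693 to 1.45. Their lowest value, at 60 min replicate 1, was also below the 0.781 of vehicle unstimulated 1 h. The study had placed this window among its control start sites, those it took as not regulated by activity.

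Over the vehicle mean of 10, 30 and 60 min, 34 of 44 members were positive, and Psmg1, a chaperone of alpha-ring assembly, had the most negative difference of the others. Its density in vehicle was 1.64 and 2.00 at 10 min, 1.79 and 1.30 at 30 min, and 1.33 and 1.89 at 60 min, against 2.04 and 2.35 unstimulated at 1 h. All 6 active libraries were below both unstimulated ones, and the mean log2 difference was -0.41 ± 0.19 (SE), with a limma adjusted p of 0.308. In U0126 the same difference was 0.03, and the groups overlapped.

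Other members of low p were not called either. Psma3, an alpha-ring subunit, had a log2 difference of 0.45 over the vehicle mean (limma adjusted p = 0.354). At 10 min, Psma7 of the alpha ring and the assembly chaperone Psmg2 had 0.54 and 0.55, while Psmd10 had -0.48 with a 95% interval of -1.42 to 0.45. At 30 min Psmb1, a structural subunit of the beta ring, had 0.59, and Psmb9 had -0.69, with an interval of -1.61 to 0.23. At 60 min Psmc3, a base ATPase, had 0.67, and Psme1, the partner of Psme2, had -0.47. The pair of PA28 subunits thus had opposite signs at that time.

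The number of members whose active and unstimulated libraries did not overlap was counted after the values were seen. In vehicle, all 6 libraries of 10 to 60 min lay above both unstimulated 1 h libraries for 8 of 44 members (18.2%), against 10.7% of all genes tested. These were Psma7, Psmb3, Psmb6, Psmc5, Psmd8, Psmd13, Psme2 and Psmg2. The windows of Psma7, Psmc5, Psmd13 and Psmg2 overlap that of another gene, so their density cannot be assigned to the member alone. Psmg1 was the 1 member below (2.27%), against 4.84% of all genes. In U0126, 5 members lay above (11.4%), against 9.69%, and these were Psma1, Psma2, Psmd3, Psmd6 and Psmd7. In U0126, 0 members lay below, against 3.03%. None of the 5 members above in U0126 is among the 8 above in vehicle. The share of all genes above in both arms, each against its own unstimulated libraries, was not counted. No difference between the arms is therefore read from this. With both drugs together, 12 active against 4 unstimulated libraries, 0 members were above, against 2.84%, and 0 were below, against 0.207%.

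In U0126, activity gave a median log2 difference of 0.13 over the members for the mean of 10, 30 and 60 min, beside 0.05 in genes of like density and 0.15 for the same contrast in vehicle. Of the 44 members, 34 were positive in each arm. The median density of the tested members was 1.26 to 1.40 in the 6 active U0126 libraries, against 1.14 and 1.19 in the unstimulated 1 h libraries of U0126. Genes of like density also stood apart there, at 1.24 to 1.33 in the active libraries, against 1.19 and 1.20. The members' median divided by that of genes of like density overlapped in U0126, with 0.956 at 60 min replicate 1 and 0.991 at 30 min replicate 1, against 0.988 and 0.961 unstimulated. limma called 1 member in U0126, where it called 0.364% of all genes, and 0 members in the vehicle mean, where it called 1.07% of all genes and where 3 members (6.82%) had an unadjusted p under 0.05, against 14.5% of all genes. In U0126 too, 3 members were at that level, against 10.1% of all genes. Over both arms, the median was 0.18, and 37 members were positive (84.1%), against 53.1% of all genes and 59.8% of genes of like density. limma then called 1 member of 44, against 6.13% of all genes and 4.55% of genes of like density. At an unadjusted p under 0.05 there were 6 members (13.6%), against 19.7% of all genes.

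The member called in both of these was Psmd7 (Rpn8), the lid subunit that pairs with the deubiquitinase Psmd14, at chr8:110112082-110112682 in mm9. In U0126 its Pol II density was 1.74 and 1.70 at 10 min, 2.19 and 2.02 at 30 min, and 2.00 and 2.03 at 60 min, against 0.928 and 0.962 unstimulated at 1 h. The groups lay far apart, and the log2 difference of the mean was 0.90 ± 0.20 (SE, limma adjusted p = 0.0264). In vehicle its density was 1.64 and 1.45 at 10 min, 1.75 and 1.62 at 30 min, and 1.78 and 1.64 at 60 min, against 1.43 and 1.63 unstimulated at 1 h. There the groups overlapped, and the log2 difference was 0.08 ± 0.20 (SE, limma adjusted p = 0.905). The mean over both arms was 0.49 ± 0.14 (SE, limma adjusted p = 0.0274).

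The difference between the arms at Psmd7 was 0.83 (log2), with a 95% interval of 0.27 to 1.39, and it did not pass the adjustment (limma adjusted p = 0.9997). Most of it lay in the unstimulated libraries: U0126 minus vehicle was -0.61 at unstimulated 1 h and 0.22 over 10 to 60 min. At unstimulated 6 h Psmd7 had a log2 difference of -0.22 between the drugs. The call in U0126 was lost without either unstimulated 1 h library (adjusted p = 0.562 without replicate 1 and 0.217 without replicate 2), and at adjusted p values of 0.0502 to 0.0626 without 10 min replicate 1, 30 min replicate 1 or either 60 min library. It was also lost with quantile normalization (0.0762), without the variance trend (0.0721) and without the density filter (0.562). The log2 difference in U0126 was 0.88 to 0.92 without single libraries and 0.82 to 0.95 under the other settings. The call over both arms was lost without any 1 of the 4 unstimulated 1 h libraries, at adjusted p values of 0.0560 to 0.175, with log2 differences of 0.45 to 0.53 without single libraries and 0.39 to 0.60 under the other settings.

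The other lid genes had smaller differences in U0126. Psmd6 and Psmd3 had 0.49 and 0.46 (log2, limma adjusted p = 0.427 and 0.479), and the base scaffold Psmd1 had 0.45. Over both arms, all 8 lid genes and all 7 beta-ring genes were positive, with medians of 0.23 and 0.12, and the 3 base scaffold and receptor genes lay between 0.24 and 0.33. Of the other roles, 6 of 7 alpha-ring genes, 4 of 5 ATPases, 4 of 5 activators and inhibitor and 4 of 7 assembly chaperones (median 0.033) were positive, while Psmb9 had -0.024. Psmb6 had 0.33 and Psme2 0.39 over both arms, with limma adjusted p values of 0.174 and 0.167.

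**Figure D3:**
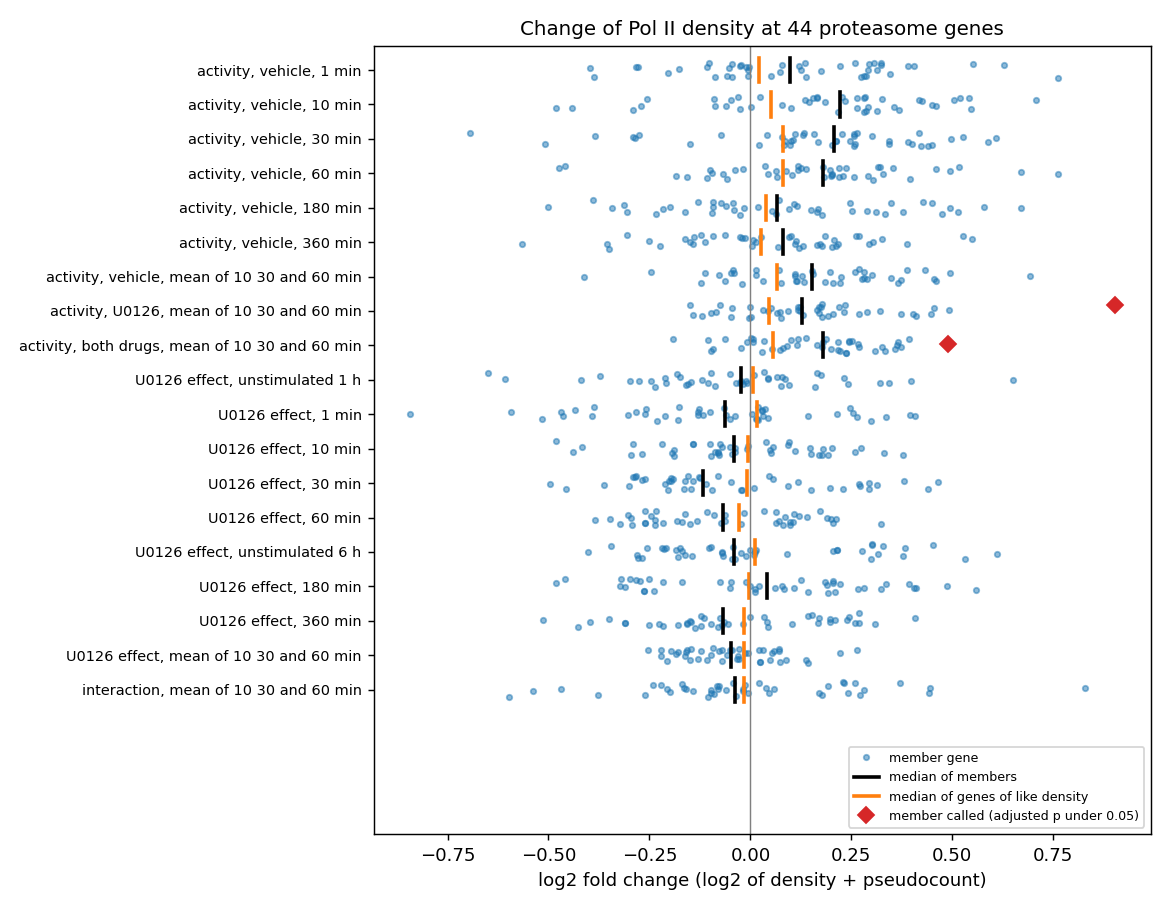
Log2 fold change of Pol II density (x axis) of each of the 44 tested members (points) in each of 19 comparisons (rows), with the median of the members and of genes of like density. The members' medians lie at 0.18 to 0.22 in vehicle at 10, 30 and 60 min, the U0126 effects lie around 0, and Psmd7 is the called member.

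The effect of U0126 itself was compared at each condition. limma called 0 of 44 members at each of the 8 conditions, where it called 1 gene (0.00827%) at 10 min and 0% at the other 7. At an unadjusted p under 0.05 there were 2 members (4.55%) at unstimulated 1 h, against 2.38% of all genes, and 1 (2.27%) at 360 min, against 0.942%. Named after their values were seen, these were Psmd7 and Psme2 at unstimulated 1 h, with log2 differences of -0.61 and 0.65, and Psmd7 at 360 min with -0.51. There were 0 at the other 6 conditions, where all genes had 2.22% at 1 min, 3.22% at 10 min, 2.14% at 30 min, 2.5% at 60 min, 2.19% at unstimulated 6 h and 2.51% at 180 min. The members' medians ran from -0.12 at 30 min to 0.04 at 180 min, where U0126 has 1 library that was assumed to vary like the other groups. The median at 30 min was -0.045 without replicate 1 of either drug, and that at 180 min was -0.028 without vehicle replicate 1. Genes of like density had medians of -0.0096 and -0.0046 at those times. Over the 8 conditions their medians ran from -0.028 at 60 min to 0.016 at 1 min. Positive members were 36.4% at 30 min to 56.8% at 180 min, the extremes. Of genes of like density, 46.0% at 60 min to 52.5% at 1 min were positive.

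Over the mean of 10, 30 and 60 min, U0126 minus vehicle had a median of -0.05 over the members and -0.02 over genes of like density. Of the 44 members 15 were positive (34.1%), beside 47.6% of all genes and 46.1% of genes of like density. limma called 0 of the 44, against 0.0165% of all genes, and 0 had an unadjusted p under 0.05, against 2.97%. The differences lay between -0.25 at Psmg3, a chaperone of core assembly, and 0.26 at Psmg1. The 95% intervals of all members lay within -0.69 and 0.54 on the log2 scale. Other members at the low end were Psmb6 with -0.22 and Psmd5 with -0.18. None of the 5 ATPases and 3 base scaffold and receptor genes was positive, and 1 of 7 alpha-ring genes was. Of the others, 3 of 7 beta-ring genes, 3 of 8 lid genes, 3 of 7 assembly chaperones and 4 of 5 activators and inhibitor (median 0.053) were positive. The test of whether activity acted differently in U0126 and in vehicle gave a median of -0.04 over the members and -0.017 over genes of like density. The members' median changed sign with the library left out, from -0.098 without U0126 60 min replicate 2 to 0.042 without U0126 unstimulated 1 h replicate 2. In that test 0 members were called, against 0% of all genes, and 1 member, Psmd7, had an unadjusted p under 0.05, against 2.44%. Intervals of that difference reached from -1.27 at Psme2 to 1.39 at Psmd7, so sizeable differences at single members were not detectable at this spread.

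Genes that work with the proteasome were taken from a list of 30 ubiquitin, shuttle and assembly genes, of which 27 were in the table and tested. Their median log2 differences in vehicle were 0.21 at 10 min, 0.33 at 30 min and 0.23 at 60 min, and 0.27 over both arms, with 20 of 27 positive there (53.1% of all genes were). limma called 1 of them at 10 min, where it called 0.19% of all genes, and 2 at 30 min, against 1.42%. It called 0 at 60 min, against 0.157%, and 3 over both arms, against 6.13%, all higher with activity. In U0126 alone the partners had a median of 0.12, with 18 of 27 positive and 0 called, against 0.364% of all genes.

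The called partners included Txnl1, a thioredoxin-like protein bound to the 19S cap, and the polyubiquitin gene Ubb. Txnl1 density in vehicle was 3.42 and 3.57 at 10 min and 3.19 and 3.16 at 30 min, against 1.86 and 1.82 unstimulated at 1 h. It rose by 0.86 ± 0.19 at 10 min and 0.72 ± 0.19 at 30 min (log2 ± SE, limma adjusted p = 0.0435 and 0.0454). In U0126 its density was 3.06 and 2.66 at 10 min, 3.54 and 2.74 at 30 min, and 2.36 and 2.75 at 60 min. The unstimulated 1 h libraries of U0126 had 2.73 and 2.33, and the groups overlapped at 10 and 60 min. Vehicle Txnl1 density was 2.08 and 2.45 at unstimulated 6 h and 2.22 and 2.26 at 1 min. These values were all above both vehicle unstimulated 1 h libraries. Over the vehicle mean of 10 to 60 min it rose by 0.76 ± 0.15 (log2 ± SE, limma adjusted p = 0.00939), a call lost without unstimulated 1 h replicate 1 (0.266) or 2 (0.0978), with quantile normalization (0.165) and without the variance trend (0.0533). Both calls of Txnl1 at single times were lost without either unstimulated 1 h library or either active library, at adjusted p values of 0.0611 to 0.526.

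Ubb density in vehicle was 10.1 and 5.62 at 30 min, against 4.37 and 3.46 unstimulated at 1 h, a log2 difference of 0.91 ± 0.22 (SE, limma adjusted p = 0.0306). The value of 10.1 was in the library with 11.5% of its windows at 0, and without it the difference was 0.49 (adjusted p = 0.703). The call was also lost without unstimulated replicate 1 (0.151) or 2 (0.197), with quantile normalization (difference 0.30, adjusted p = 0.600), with the mean over windows (0.73, adjusted p = 0.0625) and without the variance trend (adjusted p = 0.117). Without the other 30 min library, replicate 2, the difference was 1.32 (adjusted p = 0.000808). In U0126 Ubb density was 8.03 and 5.70 at 30 min, against 4.46 and 4.24 unstimulated at 1 h. At Txnl1 the active libraries of 10 to 60 min and the unstimulated 1 h libraries of U0126 overlapped. Averaged over both arms, Ubb rose by 0.51 and Txnl1 by 0.44 (log2, limma adjusted p = 0.0121 and 0.0110). Both of these calls were lost with quantile normalization, at log2 differences of 0.073 and 0.14, without the density filter (adjusted p = 0.0542 and 0.0706), and without U0126 unstimulated 1 h replicate 2 (adjusted p = 0.0665 and 0.0916). The call of Ubb was also lost without U0126 unstimulated 1 h replicate 1 (0.0699) or vehicle unstimulated 1 h replicate 2 (0.0998), and that of Txnl1 without vehicle unstimulated 1 h replicate 1 (0.0601). For U0126 against vehicle, limma called 0 partners over the mean of 10 to 60 min, and the lowest p values were those of the proteasome deubiquitinase Usp14, with -0.39, and the shuttle Ubqln4, with 0.31.

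**Figure D4:**
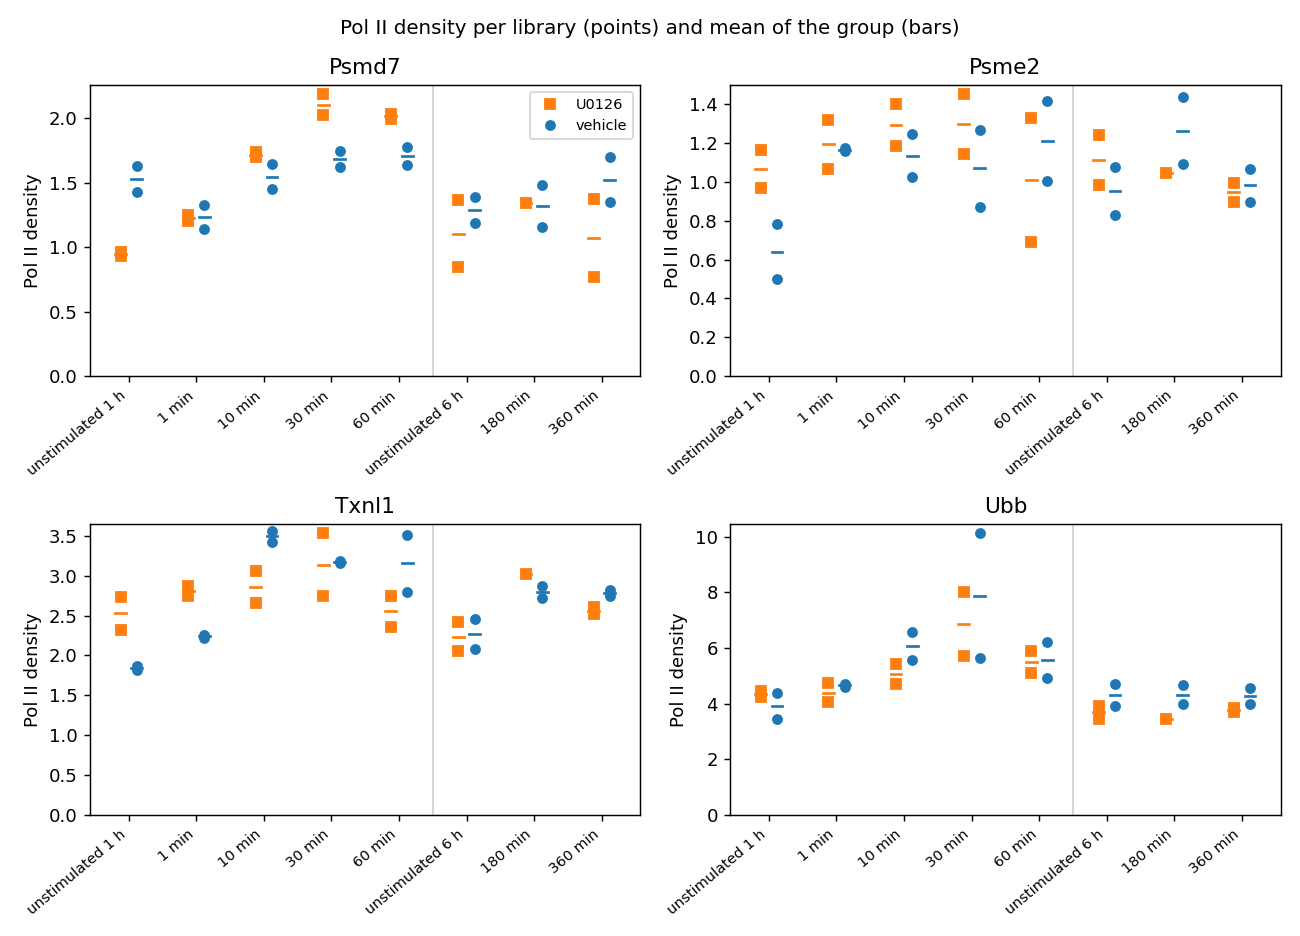
Pol II density (y axis) of Psmd7, Psme2, Txnl1 and Ubb in each library (points; bar, mean of the group), by time (x axis), in U0126 and in vehicle. At Psmd7 the unstimulated 1 h libraries lie at 0.928 and 0.962 in U0126, against 1.43 and 1.63 in vehicle, and at Psme2 they lie at 0.968 and 1.17 in U0126, against 0.498 and 0.781 in vehicle.

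The members varied together only in part. The Pearson correlation of a member's log2 density with the mean of the other members over the 31 libraries, which share their scaling and their depth, was 0.70 at Psmb6 and -0.19 at Psme4, the extremes. The non-member genes whose pattern over the 31 libraries was most like the mean of the members were C130036L24Rik (r = 0.85), Med29 (0.84) and Son (0.83). The study's own classes held 0 of the 52 member windows among its 19 rapid and 116 delayed activity-regulated start sites, and 3 among its 731 control sites, which were those of Psmd14 and both windows of Psme2.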

How the data were processed

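Pol II was measured by ChIP-seq in 31 libraries of primary mouse neurons. For the steps from reads to values, the submitters' processing notes list Bowtie2, SAMtools and bedtools on mm9, with versions and settings not given in the sources used. The authors deposited a normalized signal for each start-site window. Per the file headers it is a Pol II density scaled to control start sites. No read counts are given, so depth is unknown and no counting interval was made. The H3K27ac table, a deposited signal per region, was used only to look for regions nearest to a member; its distances, in bp per the file headers, are of another unit. The 5 input libraries were not analysed here.

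For each symbol the window with the highest mean was used, and tests covered the 12097 symbols (50%) whose mean density was highest (0.301 or more). Values were taken as log2(density + 0.148), the pseudocount being percentile 25 of the positive values, and libraries were centred at the median of the tested genes. limma 3.58.1 in R 4.3.3 fitted a mean per group over all 31 libraries with a variance trend; residual degrees of freedom were 15 and moderation added 18.7. Called genes had a Benjamini-Hochberg adjusted p under 0.05. Procedures were tested on simulated data. Tested values are given for every called member or, with fewer than 4 called, the 4 of lowest p, and for the largest rise and fall; partners are those called or the 2 of lowest p, some of which are not reported here; the 3 genes of most like pattern are named. The members, lists and tests were chosen with earlier results of these data known. Alternatives were other pseudocounts, no filter, other scalings, the mean over windows, no variance trend, a replicate block and leaving out each library. Promoter sequences are from RefSeq.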

Additional observations from a re-analysis of the deposited data

How the results depend on the processing

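Each result was recomputed with the pseudocount halved or doubled, without the density filter, with the values as deposited, with quantile normalization, with the mean over a symbol's windows, without the variance trend, with the replicate number as a block and without each library. The count of called members stayed 0 under these alternatives in every comparison of U0126 with vehicle, in the interaction and at the 6 single times in vehicle. The member medians changed most without the filter, then over all 50 members, with 0.49, 0.41 and 0.35 for 30 min, 60 min and the 10 to 60 min mean in vehicle, 0.16, 0.036, -0.20 and -0.086 for U0126 against vehicle (unstimulated 1 h, then 1, 60 and 180 min), and -0.24 in the interaction. Libraries are then centred on all genes, and the tested genes as a whole moved as well. In the same order, the tested genes had medians of 0.17, 0.13, -0.14 and -0.085 for U0126 against vehicle, and -0.20 in the interaction. Centring shifts all genes of a library by the same log2 amount. The tested members' median minus that of genes of like density was therefore bound to equal the reported fit, and is no check. That difference was -0.031 at unstimulated 1 h, -0.039 at 60 min and -0.023 in the interaction. Quantile normalization gave 0.092 and 0.067 for 30 and 60 min in vehicle, beside 0.0044 and 0.013 in genes of like density. The 1 called member, Psmd7, became 0 in U0126 without the filter, with quantile normalization and without the variance trend, and over both arms without the filter and with quantile normalization.

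Leaving out 1 library gave 0 to 1 called members in U0126 and over both arms. Member medians then ran from 0.031 to 0.19 for vehicle 1 min, -0.013 to 0.15 for vehicle 180 min and -0.068 to 0.13 for vehicle 360 min. For U0126 against vehicle they ran from -0.17 to -0.022 (1 min), -0.042 to 0.059 (10 min), -0.19 to 0.014 (60 min) and -0.10 to 0.074 (unstimulated 6 h). They also ran from -0.12 to -0.045 (30 min), -0.028 to 0.036 (180 min), -0.11 to 0.0054 (360 min), -0.089 to 0.024 (unstimulated 1 h) and -0.094 to -0.0076 (10 to 60 min mean). The interaction ran from -0.098 to 0.042. Psmd10 at 10 min in vehicle ran from -1.06 to 0.098, with 0.098 without the first library of that group and 0.019 without the second unstimulated 1 h library; the cause was not tested.

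The replicate number was used as a block in a further fit. Groups share only 2 numbers, so the numbers were not shown to pair the libraries. The correlation of replicate 1 minus replicate 2 between groups was -0.042 to 0.50. With the block, 1 member was called over 10 to 60 min in vehicle, Psme2 (0.69, adjusted p = 0.0302), where 570 genes in all were called, against 129 without it; no other count of called members changed, and the median of U0126 against vehicle at 180 min was 0.097. Unknown depth, 2 libraries per group and shared unstimulated libraries limit all these values.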
